A study of Mus musculus with 64 samples.

Results

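The hypothalamus of mice killed 3 h after a single dose of psilocybin was compared with the hypothalamus of mice killed 4 weeks after the same dose. The comparison holds 16 of the 64 bulk RNA sequencing libraries of the series, 8 at each time point, chosen by region, treatment and time of harvest as the labels give them. The mice were male C57BL/6J mice on chow, housed in groups and 10 weeks old when injected, and each received 3 mg/kg psilocybin intraperitoneally. They carried no engineered allele, all were given sham injections on the days before, and all were killed 4 h after the lights came on. The vehicle mice, used below for comparison, received isotonic saline and were handled in the same way (7 hypothalamus libraries at 3 h and 8 at 4 weeks), and the PFC was taken from the psilocybin mice (8 libraries at 3 h and 7 at 4 weeks). The labels call that tissue frontal cortex. Each hypothalamus library is 1 mouse. The p-values of the main fit rest on a spread between libraries estimated over all 62 used, of both regions and both treatments. The mice of the earlier and the later time point are different animals. The 4-week mice were therefore 4 weeks older and were killed on another day, so time since the injection, age and day of harvest cannot be told apart within the psilocybin groups. RNA of the hypothalamus was extracted in 2 pools, with mice 1 to 4 in pool A and mice 5 to 8 in pool B, and the pool was a covariate in each fit.

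Psilocybin is converted in the body to psilocin, an agonist of serotonin receptors. The hypothalamus holds the neurons that set food intake, body temperature, wakefulness and the release of pituitary hormones. It also starts the stress axis, since corticotropin-releasing hormone made there leads to the release of glucocorticoids from the adrenal gland. Glucocorticoids enter cells freely and bind the glucocorticoid receptor, a transcription factor that then acts on genes such as Fkbp5, which encodes a chaperone that lowers the affinity of the receptor for its ligand, and Tsc22d3, which encodes an anti-inflammatory leucine zipper protein. Injection and handling are known to raise circulating glucocorticoids, and their level also follows the time of day.

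The 16 libraries held from 8210257 to 27490537 counted reads. All 24 marker genes of the hypothalamus were among the genes tested, and their summed level, in CPM (read counts scaled to the size of each library), ran from 1106 to 1766 (median 1326) at 3 h and from 1166 to 1959.9 (median 1412) in the 7 libraries at 4 weeks other than library 5. Library 5 of the 4-week group stood apart, with a median distance to the other hypothalamus libraries of 167 on the log2 CPM scale against 60.5 to 112 for all the others. Its marker sum for the hypothalamus was 3559 CPM, and its ribosomal protein genes summed to 39653 CPM against 9089.8 to 12496 CPM in the other 7. The main counts of called genes below are therefore given with and without library 5. Values of single genes are those with all libraries unless stated otherwise. Of the 38 called genes picked by the rule given below, 34 stayed called without library 5, and Klf9, Ahsa2, Opalin and Tap1 did not. Library 3 at 4 weeks (distance 112) and library 5 at 3 h (distance 104) came next, and their summed wound healing and activated immune markers were 819.9 and 683 CPM, while the other 14 libraries lay between 151 and 475 CPM. In bulk tissue, fewer cells of a type and less RNA per cell cannot be told apart.

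Between the time points, 220 of 18971 genes tested (1.16%) passed an adjusted p of 0.05 with all libraries (edgeR quasi-likelihood test with Benjamini-Hochberg adjustment). Of these, 141 (0.743%) were higher and 79 (0.416%) lower at 3 h. Without 4-week library 5, 150 of 18890 genes (0.794%) passed, 117 higher (0.619%) and 33 lower (0.175%). In both fits 116 genes passed in the same direction (0.611%), 95 higher (0.501%) and 21 lower (0.111%). In these edgeR fits more of the called genes were higher than lower at 3 h, which was not so with DESeq2 (given below). Of the 79 lower genes, 58 lost their call without library 5. The median log2 fold change (3 h minus 4 weeks) of the 95 higher genes was 0.44, with single values from 0.17 to 2.84, and that of the 21 lower genes was -0.57, beside -0.029 over all genes tested. Within the single extraction pools, 94 of 94 higher genes that were tested in each pool had the same direction in both, as had 18 of 18 lower genes, beside 10217 of 16242 over all genes. The genes were called on these same libraries, which favours such a count, so it is a description only. How many genes passed depended on the fit. With the 16 libraries alone, where the spread was estimated from these libraries only, 31 genes passed, all of them among the 220. DESeq2 called 448 genes, 213 of them higher and 235 lower. The procedure of the study, voom with quality weights and the animal as block, called 728 genes, 459 higher and 269 lower.

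**Figure D1:**
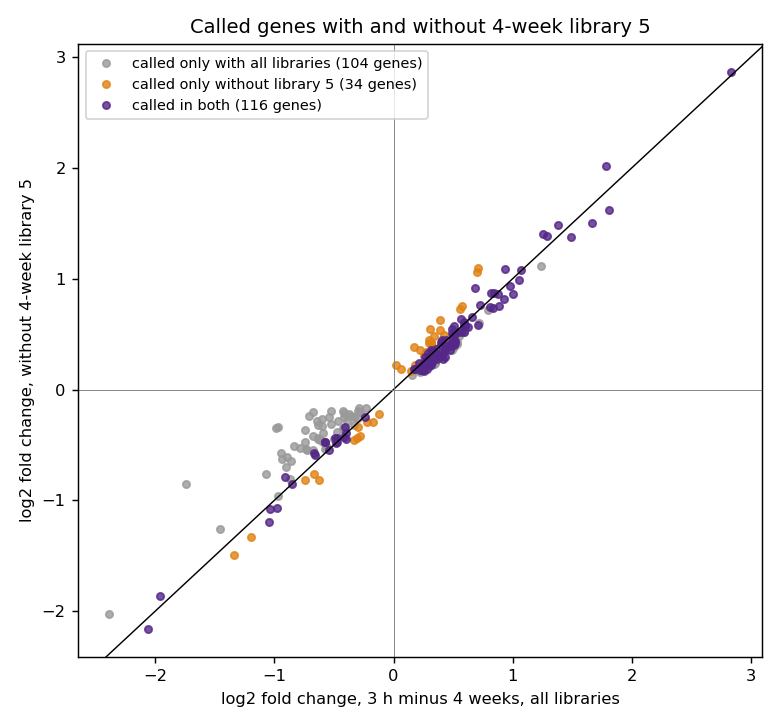
Each point is a gene called in at least 1 fit, with its log2 fold change (3 h minus 4 weeks) with all libraries on the x axis and without 4-week library 5 on the y axis, and the black line marks equal values. The 116 genes called in both lie near the line, and of the 104 genes called only with all libraries 58 are lower at 3 h.

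The gene lists and their members were chosen with earlier results of these data known, so their ranks are descriptions only. Among the lists examined, that of known glucocorticoid targets had the most called members. Of 25 genes in this list, all tested, 11 were higher at 3 h and 0 lower, with a median log2 fold change of 0.38 over the list, where 0.743% of all genes were called higher. Without library 5, 10 were higher and 0 lower, with a median of 0.39. The called members were Zbtb16, Plin4, Cdkn1a, Fkbp5, Mertk, Tsc22d3, Hif3a, Bcl6, Sgk1, Fam107a and Klf9. Klf9 was the one that lost its call without library 5 (log2 fold change 0.38, adjusted p 0.0345 with it and 0.29, 0.108 without it). Hif3a, Bcl6, Sgk1 and Fam107a stood outside the rule for naming genes and are named, after their values were seen, because they complete the list, as are its uncalled members given below.

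Fkbp5 (chromosome 17, 28399094 to 28517524 in GRCm38, minus strand) ran from 47.9 to 61.4 CPM (median 56.2) at 3 h and from 27.2 to 32.5 CPM (median 30.7) at 4 weeks. Every library at 3 h lay above every library at 4 weeks, library 5 included, which held in this direction for 54 of all genes tested (0.285%). The log2 fold change was 0.88 ± 0.11 (SE), with an adjusted p of 1.32e-07 (edgeR), and 0.86 ± 0.11 (SE) without library 5. Tsc22d3 (chromosome X, 140539528 to 140600659, minus strand) ran from 115 to 185 CPM (median 142) at 3 h and from 67.2 to 104 CPM (median 79.4) at 4 weeks, again without overlap. Its log2 fold change was 0.82 ± 0.104 (SE) (adjusted p 1.44e-07). The highest 4-week value was that of library 5, and the other 7 libraries stayed at or below 90.8 CPM.

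The fold change was larger for several targets with less RNA. Plin4 (chromosome 17, 56100591 to 56109802, minus strand), which encodes a protein that coats lipid droplets, ran from 16.2 to 22.6 CPM (median 20.5) at 3 h and from 2.09 to 3.89 CPM (median 2.68) at 4 weeks, a log2 fold change of 2.84 ± 0.33 (SE) (adjusted p 2.65e-08). It had the largest value among the 220 called genes, and it overlaps Hdgfl2 on the other strand. Banp, Dio2, Ahsa2, Gpr17, Cd180, Prkab1 and Tap1 below also overlap a gene on the other strand, and the methods, which ask that both ends of a read pair lie on 1 strand, do not say whether that had to be the strand of the gene. Zbtb16 (chromosome 9, 48654297 to 48836222, minus strand), a zinc finger transcription factor, ran from 19.4 to 33.6 CPM (median 25.2) at 3 h and from 1.47 to 12.9 CPM (median 7.29) at 4 weeks. Its lowest 4-week value was that of library 5, and the log2 fold change was 1.81 ± 0.21 (SE) with it and 1.62 ± 0.18 (SE) without it. Cdkn1a (chromosome 17, 29090976 to 29100722, plus strand), the cell cycle inhibitor p21, ran from 17.7 to 26.7 CPM (median 21.1) at 3 h and from 6.03 to 13.3 CPM (median 8.12) at 4 weeks (log2 fold change 1.29 ± 0.15 (SE), adjusted p 2.65e-08). For all of these the groups did not overlap. Mertk, a receptor tyrosine kinase for the uptake of dying cells and debris, ran from 30.04 to 40.3 CPM (median 35.4) and from 6.59 to 22.97 CPM (median 19.02), and Hif3a, a member of the hypoxia-inducible factor family, ran from 7.56 to 14.4 CPM (median 10.8) and from 0.884 to 5.73 CPM (median 3.27), likewise without overlap. Their log2 fold changes were 1.003 ± 0.13 (SE) and 1.67 ± 0.23 (SE), or 0.87 and 1.502 without library 5.

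Sgk1, Bcl6 and Fam107a were higher at 3 h with overlapping groups. Sgk1, a kinase that controls ion channels and transporters, ran from 30.9 to 98.4 CPM (median 51.7) at 3 h, the highest in library 5, and from 18.3 to 33.6 CPM (median 28.6) at 4 weeks (log2 fold change 1.06 ± 0.16 (SE), adjusted p 2.42e-05). Bcl6, a transcriptional repressor, ran from 19.8 to 34.7 CPM (median 25.6) and from 14.9 to 20.4 CPM (median 17.6), and Fam107a, an actin-associated protein, from 319.5 to 539.9 CPM (median 426) and from 198 to 325 CPM (median 293). Their log2 fold changes were 0.604 ± 0.092 (SE) and 0.595 ± 0.11 (SE). The other 14 members did not pass the test. Among them Per1 had a log2 fold change of 0.21 (adjusted p 0.3496), Nfkbia 0.28 (0.168), Ddit4 0.19 (0.377), Pdk4 0.28 (0.315) and Dusp1 0.24 (0.5263). The values of the metallothionein genes depended on library 5. Mt2 had a log2 fold change of 0.021 with it and 0.61 without it (adjusted p 0.0540), and Mt1 -0.16 and 0.346.

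**Figure D2:**
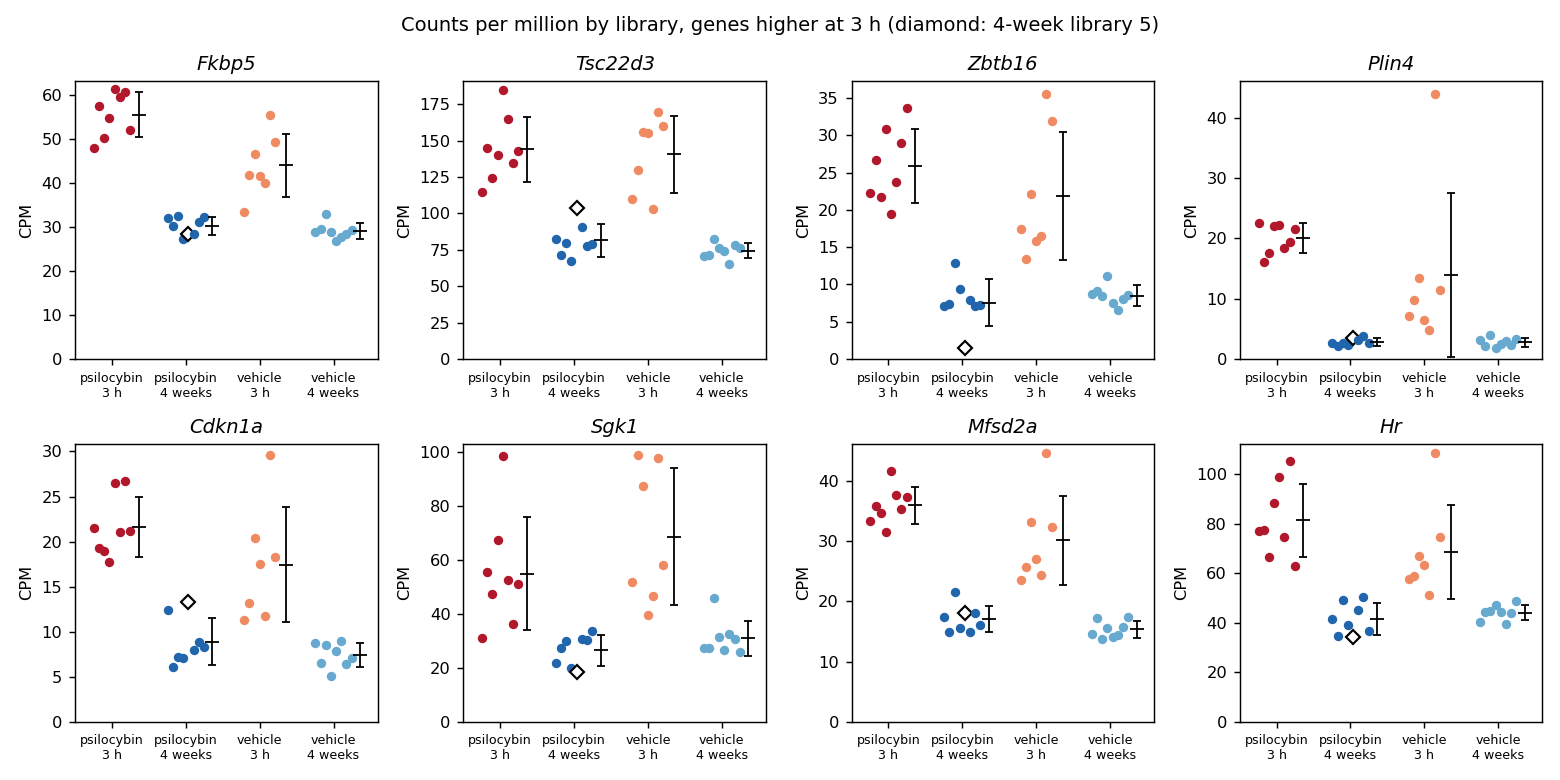
TMM-normalised CPM of Fkbp5, Tsc22d3, Zbtb16, Plin4, Cdkn1a, Sgk1, Mfsd2a and Hr in each hypothalamus library of the 4 groups on the x axis, with the mean and SD at the right of each group and 4-week library 5 as an open diamond. The psilocybin libraries at 3 h lie above all those at 4 weeks for each gene but Sgk1, and Plin4 reaches 43.9 CPM in 1 vehicle library at 3 h.

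The receptor binds a palindrome of hexamers, searched here as AGAACA and TGTTCT with 3 bases between them, on both strands, in RefSeq promoters of GRCm38.p6, windows of 300 bases that run from 250 bases before a start to 50 bases after it. Of 27025 genes with a window, 3 (0.0111%) held this full palindrome, and Sgk1 was the only one among them that was tested here. A looser form, GNACA and TGTNC with 3 bases between them, which also matches each full palindrome, was found in 145 genes (0.537%), and in 56 of the 13106 tested genes with a window (0.427%). Among the higher genes it was found in Sgk1, Fam107a and Tinagl1, and the last of these is not in the target list. The promoters of the called targets with a match are shown, 5′ to 3′ along the gene. The capitals mark the match, which begins at base 62 of the window in Sgk1 (plus strand, chr10:21993640-21993939) and at base 133 in Fam107a (minus strand, chr14:8309730-8310029):
Sgk1: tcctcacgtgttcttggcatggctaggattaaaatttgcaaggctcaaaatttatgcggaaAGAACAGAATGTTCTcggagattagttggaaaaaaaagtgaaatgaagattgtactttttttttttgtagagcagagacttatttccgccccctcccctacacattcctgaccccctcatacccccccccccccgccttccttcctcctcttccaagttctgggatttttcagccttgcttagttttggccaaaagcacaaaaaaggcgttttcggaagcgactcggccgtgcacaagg
Fam107a: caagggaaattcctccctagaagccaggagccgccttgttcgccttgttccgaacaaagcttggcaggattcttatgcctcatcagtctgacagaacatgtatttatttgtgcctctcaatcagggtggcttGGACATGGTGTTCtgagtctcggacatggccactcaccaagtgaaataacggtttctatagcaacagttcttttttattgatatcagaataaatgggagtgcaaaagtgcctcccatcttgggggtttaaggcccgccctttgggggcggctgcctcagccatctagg
Another motif, the cyclic AMP response element, to which the activity-dependent factor CREB binds, was searched as TGACGTCA, which reads the same on both strands. It was found in 549 of the 27025 genes (2.03%), and in 421 of the 13106 tested ones (3.21%). Among the higher genes it was found in 7, namely Dio2, Daam2, Ptpn11, Crkl, Phf8, Trp53inp2 and 9330159F19Rik, and among the lower genes in Mir9-3hg. A match is a description of the letters and not of binding. Of the 95 higher genes, 74 had a window in the table, which is under 80%, so no share over the list is given.

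The gene with the smallest p-value was Mfsd2a (chromosome 4, 122946850 to 122961152, minus strand), which encodes the transporter that carries lysophospholipids with docosahexaenoic acid across the blood-brain barrier. It ran from 31.6 to 41.6 CPM (median 35.6) at 3 h and from 14.97 to 21.6 CPM (median 16.7) at 4 weeks, with no overlap and a log2 fold change of 1.07 ± 0.12 (SE) (adjusted p 8.74e-09, edgeR). Library 5 lay inside the range of the other 4-week libraries, and the log2 fold change without it was 1.08 ± 0.12 (SE). Mxd4, a repressor that competes with Myc for its partner Max, ran from 78.5 to 90.9 CPM (median 87.6) and from 53.7 to 66.4 CPM (median 60.2) (log2 fold change 0.52 ± 0.064 (SE), adjusted p 1.10e-07). Banp, a nuclear matrix protein that binds DNA, ran from 21.8 to 28.3 CPM (median 25.5) and from 8.92 to 16.5 CPM (median 14.3) (0.84 ± 0.103 (SE), adjusted p 1.10e-07). Gpt2, the mitochondrial alanine aminotransferase, ran from 73.1 to 98.5 CPM (median 83.4) and from 45.2 to 65.05 CPM (median 55.9) (0.597 ± 0.077 (SE), adjusted p 3.09e-07). In none of these did the groups overlap. Adipor2, a receptor for adiponectin, overlapped between the groups, with values from 93.6 to 135 CPM (median 109) at 3 h and from 48.9 to 96.6 CPM (median 69.4) at 4 weeks, and had a log2 fold change of 0.63 ± 0.087 (SE) (adjusted p 1.81e-06). Its lowest 4-week value was that of library 5.

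Among 15 thyroid hormone genes, 3 were higher and 0 lower (2 higher without library 5), beside 0.743% higher and 0.416% lower over all genes (0.619% higher without library 5), while the median of the list was -0.085. Hr, a nuclear corepressor whose gene responds to thyroid hormone in the brain, ran from 63.02 to 105 CPM (median 77.2) at 3 h and from 34.3 to 50.5 CPM (median 40.2) at 4 weeks, with no overlap (log2 fold change 0.98 ± 0.13 (SE), adjusted p 5.06e-07). Dio2, the deiodinase that makes the active hormone from its precursor, ran from 18.7 to 48.2 CPM (median 28.8) and from 8.70 to 29.2 CPM (median 14.9) (0.93 ± 0.17 (SE), adjusted p 5.93e-04). It overlapped, and its adjusted p was 0.00403 without library 5 and 0.0496 without all 3 libraries that stood apart. The third was Klf9, which is also a glucocorticoid target and is counted in both lists.

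Of 39 immediate early genes tested, which neurons switch on within minutes of activity, 3 were higher at 3 h and 0 lower, with and without library 5 (median log2 fold change 0.17 and 0.13), where 0.743% and 0.619% of all genes were called higher. Bdnf (chromosome 2, 109674700 to 109727007, plus strand), a growth factor that strengthens synapses, ran from 17.4 to 21.4 CPM (median 18.2) at 3 h and from 10.8 to 15.8 CPM (median 13.4) at 4 weeks, with no overlap (log2 fold change 0.51 ± 0.090 (SE), adjusted p 2.86e-04). It was also the only called one of the 34 genes of synaptic plasticity and adhesion, a share to be read against the same 0.743%. Fosl2, a subunit of the AP-1 transcription factor, ran from 14.98 to 24.1 CPM (median 18.1) and from 5.05 to 15.1 CPM (median 12.1) (0.71 ± 0.14 (SE), adjusted p 0.00323). Its lowest 4-week value was that of library 5. Fosb, another AP-1 subunit, was low, with values from 2.15 to 4.51 CPM (median 3.27) at 3 h and from 0.773 to 4.37 CPM (median 1.55) at 4 weeks (0.89 ± 0.20 (SE), adjusted p 0.0101). Its highest 4-week value was that of library 3. Without the 3 libraries that stood apart Fosl2 lost its call (adjusted p 0.0784), as did the heat shock gene Hsph1 described next (0.149).

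Among 27 heat shock and cold-inducible genes, 3 were higher and 1 lower at 3 h with all libraries, and 4 were higher and 1 lower without library 5. Over all genes 0.743% were called higher and 0.416% lower, or 0.619% and 0.175% without library 5. Without the 3 libraries that stood apart, 1 of the 27 was higher and 1 lower, beside 66 and 13 of 19008 genes. Dnajb1, a co-chaperone that delivers clients to the major heat shock proteins, ran from 58.5 to 98.1 CPM (median 69.7) at 3 h and from 43.8 to 65.7 CPM (median 50.3) at 4 weeks (log2 fold change 0.504 ± 0.11 (SE), adjusted p 0.00500). Library 5 had its highest 4-week value, and without it the groups did not overlap, as for 69 of all genes (0.364%). Hsph1, a large heat shock protein that exchanges nucleotide on other chaperones, ran from 358 to 513 CPM (median 429.8) and from 332 to 379 CPM (median 356) (0.297 ± 0.067 (SE), adjusted p 0.00890). Ahsa2 passed with all libraries (0.33, adjusted p 0.0401) but not without library 5 (0.301, adjusted p 0.0991). The near-identical genes Hspa1a and Hspa1b passed only without library 5, with log2 fold changes of 1.06 and 1.10. They share reads and are uncertain as single genes, and they were named after their values were seen. The heat shock element, searched as GAA, TTC and GAA with 2 bases between neighbours on both strands, was found in 179 of the 27025 genes with a promoter window (0.662%), and in 74 of the 13106 tested ones (0.565%). It is shown for Hsph1 (minus strand, chr5:149636266-149636565), the 1 gene of the 95 that had it, with the match, on the other strand of the gene, in capitals from base 266 of the window:
Hsph1: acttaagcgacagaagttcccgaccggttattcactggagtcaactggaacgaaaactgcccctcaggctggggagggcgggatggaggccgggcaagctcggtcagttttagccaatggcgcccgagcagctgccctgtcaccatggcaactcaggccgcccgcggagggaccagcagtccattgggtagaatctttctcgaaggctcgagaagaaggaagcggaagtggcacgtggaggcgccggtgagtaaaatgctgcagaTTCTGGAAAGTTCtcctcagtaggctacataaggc

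Mir9-3hg (chromosome 7, 79500026 to 79531303, plus strand), the host transcript of a microRNA gene, had the smallest p-value of the lower genes. It ran from 9.66 to 15.7 CPM (median 10.6) at 3 h and from 15.7 to 26.2 CPM (median 18.02) at 4 weeks, and the groups touched without overlapping. The log2 fold change was -0.66 ± 0.104 (SE) (adjusted p 3.37e-05, edgeR) and -0.59 ± 0.103 (SE) without library 5 (adjusted p 2.84e-04). After vehicle it was -0.605 (adjusted p 7.07e-04). The counts are those of the host gene and say nothing of the mature microRNA.

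Cirbp (chromosome 10, 80165985 to 80172786, plus strand), which encodes the cold-inducible RNA-binding protein, came next. It ran from 48.4 to 78.4 CPM (median 65.96) at 3 h and from 83.8 to 145 CPM (median 88.8) at 4 weeks, and every 3 h library lay below every 4-week library, which held in this direction for 12 of all genes tested (0.0633%). The log2 fold change was -0.57 ± 0.097 (SE) (adjusted p 1.57e-04, edgeR). The highest value was that of library 5, and without it the log2 fold change was -0.48 ± 0.092 (SE) (adjusted p 0.00119). Fgfrl1, a receptor that binds fibroblast growth factors but lacks the kinase domain, ran from 9.78 to 12.4 CPM (median 11.1) and from 13.5 to 18.3 CPM (median 16.005), also without overlap (-0.54 ± 0.092 (SE), adjusted p 1.57e-04). Cd180, a receptor of microglia and B cells related to the Toll-like receptors, ran from 1.19 to 2.22 CPM (median 1.41) and from 1.77 to 3.76 CPM (median 3.33) (-0.97 ± 0.17 (SE), adjusted p 1.74e-04). The groups overlapped for Cd180. Of the 17 microglia markers 1 had a positive log2 fold change with all libraries and 4 without library 5, none past the test, and their sum ran from 443 to 648 (median 494) CPM at 3 h and from 463 to 826 (median 575) CPM at 4 weeks. The part of these cells in the value of Cd180 was not tested. Of the 21 lower genes 5 did not overlap, and the others of these were the uncharacterised Gm37447 (log2 fold change -1.96), named after its values were seen, and Oacyl. Oacyl was low, with values from 0.420 to 1.08 CPM (median 0.715) and from 1.18 to 2.08 CPM (median 1.45).

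The remaining lower genes named by the rule overlapped between the groups, as did Col6a1, the called collagen gene. They were Plekho2 (log2 fold change -0.48), Tmprss7 (-0.91), Prkab1 (-0.40), which encodes a subunit of the AMP-activated protein kinase, Rcor2 (-0.58), a corepressor, Stxbp2 (-0.49), a regulator of vesicle fusion, Tipin (-0.47), a replication fork protein, the nuclear RNA Neat1 (-0.48) and Col6a1 (-1.04). Their adjusted p ran from 0.00424 to 0.0252 with all libraries (edgeR) and were all under 0.05 without library 5. Without all 3 libraries that stood apart, a fit added after seeing the data, Tmprss7, Prkab1, Rcor2, Stxbp2, Tipin and Neat1 lost their call (adjusted p 0.0535 for Tipin and 0.180 for Rcor2), and 9 of the 21 lower genes kept it. Col6a1, a collagen chain of the matrix, ran from 5.63 to 11.8 CPM (median 7.74) at 3 h and from 5.45 to 29.96 CPM (median 13.7) at 4 weeks. It was the 1 called member of 30 collagen and matrix genes (0.416% of all genes were called lower), whose median log2 fold change was -0.20. Without library 5 the fibrillin gene Fbn1 passed as well (-0.42). The summed level of the 13 meningeal and fibroblast markers was from 50.1 to 95.04 (median 62.1) CPM at 3 h and from 50.8 to 238 (median 80.7) CPM at 4 weeks, and 13 of 13 had a lower level at 3 h, none of them past the test. The part of these cells in the collagen values was not tested.

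Smaller groups held 1 or 2 calls each, where 0.743% of all genes were called higher and 0.416% lower. Among 19 fasting and fuel genes, Foxo3, a transcription factor of the insulin pathway (log2 fold change 0.24 ± 0.0503 (SE), adjusted p 0.00371), and Slc2a1, the glucose transporter of the blood-brain barrier (0.41 ± 0.0999 (SE), adjusted p 0.0223), were higher at 3 h with and without library 5. Of 14 markers of oligodendrocyte precursors and newly formed oligodendrocytes 1 was higher, Gpr17, a receptor of newly formed oligodendrocytes (0.52 ± 0.087 (SE), adjusted p 1.41e-04). At 4 weeks Gpr17 was lowest in library 5 (41.4 CPM, others 61.2 to 77.5), and it stayed called without that library. The list as a whole ran from 1111 to 1304 (median 1276) CPM at 3 h and from 1096 to 1243 (median 1219) CPM at 4 weeks without library 5, which had 645 CPM. Opalin, a myelin gene (-0.67, adjusted p 0.0280), and Tap1, a peptide transporter for antigen presentation (-0.58, adjusted p 0.0435), were each the 1 lower gene of their list of 18 and 29, and both lost the call without library 5 (adjusted p 0.221 and 0.102).

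**Figure D3:**
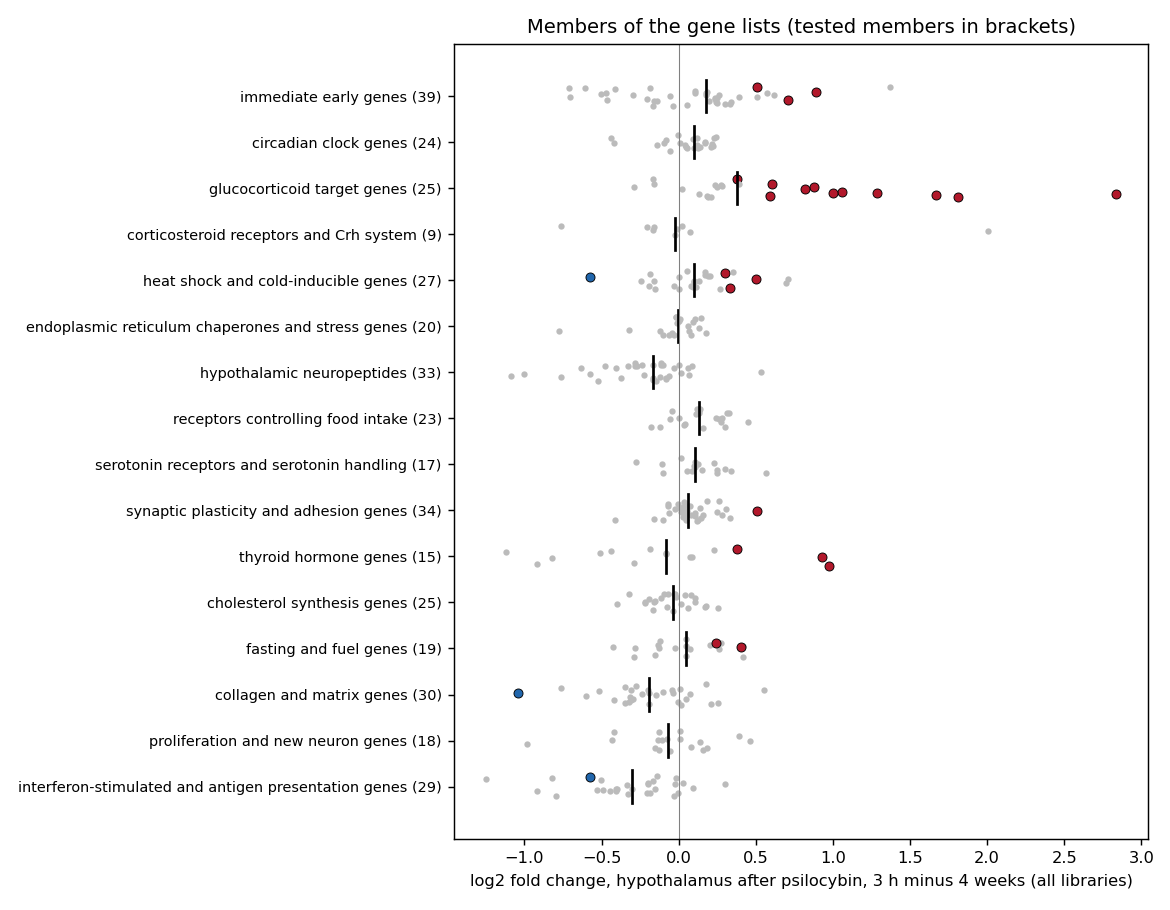
Log2 fold change (3 h minus 4 weeks, all libraries, x axis) of the tested members of 16 gene lists, with called members in red (higher at 3 h) or blue (lower) and the list median as a black bar. The glucocorticoid list has 11 of 25 members called, more than any other list shown. The lists of neuropeptides, serotonin receptors, clock genes and receptors for food intake hold none. All lists were chosen with earlier results of these data known.

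The signals and receptors for which the hypothalamus is known did not pass the edgeR test. Of 33 neuropeptide genes tested, 0 were called with or without library 5, and the median log2 fold change moved from -0.17 to 0.020 when it was left out. Oxt, oxytocin, ran from 67.7 to 244 CPM (median 97.6) at 3 h and from 89.6 to 1201 CPM (median 148) at 4 weeks, where the 7 libraries other than library 5 did not exceed 181 CPM. Its log2 fold change was -1.09 with library 5 and -0.31 without it (adjusted p 0.175 and 0.846). Avp, vasopressin, likewise ran from 65.5 to 287 CPM (median 98.2) and from 95.2 to 1121 CPM (median 176), with library 5 the highest and a log2 fold change of -0.41 without it (adjusted p 0.164 with it and 0.745 without it). Pomc, the precursor of the peptide that lowers food intake through melanocortin receptors, ran from 18.7 to 44.95 CPM (median 32.1) and from 21.9 to 147 CPM (median 35.8) (-0.63 and -0.215). Agrp and Npy, the peptides that raise food intake, had log2 fold changes of -0.12 and -0.032 with library 5 and 0.40 and 0.27 without it, so their sign turned. With voom, quality weights and the animal as block, Agrp passed and was higher at 3 h, with a log2 fold change of 0.75 (adjusted p 0.0351), or 0.77 without library 5 (adjusted p 0.0333). Agrp overlaps other genes on the opposite strand. Crh, the peptide that starts the stress axis, ran from 2.12 to 5.65 CPM (median 4.12) and from 2.47 to 7.03 CPM (median 3.997) (-0.16, adjusted p 0.682). Hcrt, orexin, and Pmch, the melanin-concentrating hormone precursor, had values of -0.40 and -0.17, with wide ranges inside each group. Hcrt ran from 0.910 to 89.9 CPM at 3 h alone.

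Of 17 serotonin receptor and handling genes tested, 0 were called in either fit. Htr2a, the receptor through which psychedelics are best known to act, ran from 11.1 to 23.6 CPM (median 16.6) at 3 h and from 5.67 to 19.2 CPM (median 13.8) at 4 weeks (log2 fold change 0.34 ± 0.17 (SE), adjusted p 0.275, and 0.223 ± 0.16 (SE) without library 5). Htr2c, a receptor through which serotonin lowers food intake, ran from 96.5 to 126 CPM (median 110.2) and from 36.4 to 136 CPM (median 116) (0.103 ± 0.25 (SE), and -0.026 without library 5). Htr1f was among the lowest (from 0.692 to 1.46 CPM at 3 h) with 0.56 (adjusted p 0.333). Of 23 receptors controlling food intake, 0 were called, with Igf1r (0.26, adjusted p 0.140) and Hcrtr2 (0.45, 0.167) nearest to the threshold. Of 24 clock genes, 0 were called, and Dbp, an output of the clock, had -0.42 (adjusted p 0.0990). Since all mice were killed at the same hour, the clock was sampled at 1 phase only. Of the 9 corticosteroid receptor and Crh system genes, 0 were called. Ucn reached 11.6 CPM in library 5 at 3 h, and Nr3c2, the mineralocorticoid receptor, had -0.21 (adjusted p 0.296, or 0.0553 without 4-week library 5). Both passed in the voom fits, Ucn as higher and Nr3c2 as lower at 3 h.

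**Figure D4:**
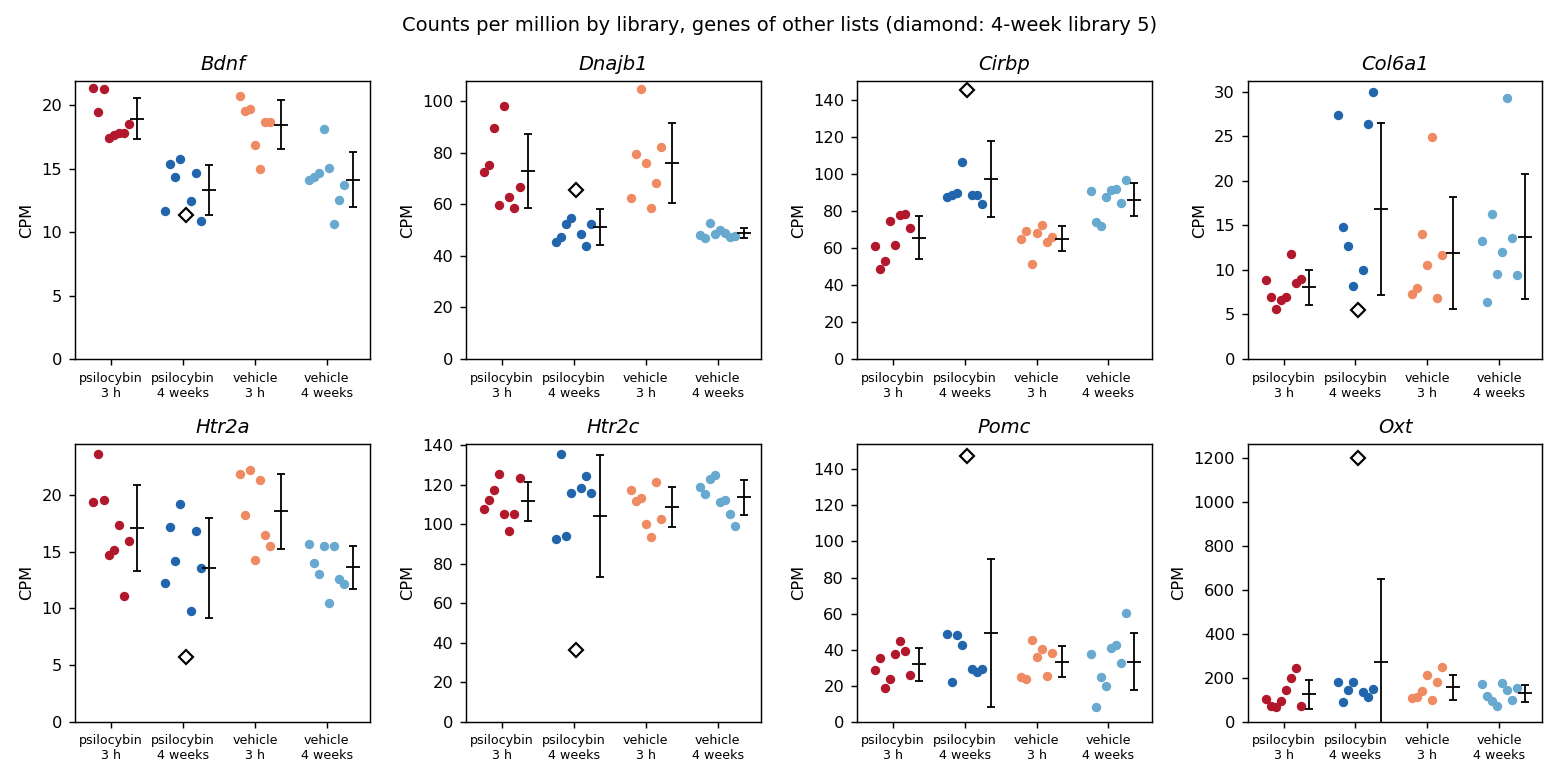
TMM-normalised CPM of Bdnf, Dnajb1, Cirbp, Col6a1, Htr2a, Htr2c, Pomc and Oxt in each hypothalamus library of the 4 groups on the x axis, with the mean and SD at the right of each group (bars below 0 are cut at 0) and 4-week library 5 as an open diamond. Bdnf is higher and Cirbp lower in all psilocybin libraries at 3 h than at 4 weeks, and at 4 weeks library 5 is the highest for Cirbp, Pomc and Oxt and the lowest for Htr2a and Htr2c.

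Housekeeping lists show how far library 5 reached. The 86 ribosomal protein genes tested had a median log2 fold change of -0.38 with it and -0.0093 without it, and 1 of 86 against 34 of 86 had a positive value. The 75 nuclear subunits of oxidative phosphorylation had -0.28 and 0.053. None of these genes was called in either fit, with Rpl36 (-0.82 and -0.18), Rplp2 (-0.68 and -0.13), Ndufb7 (-0.49 and 0.0062) and Ndufb10 (-0.43 and 0.011) nearest to the threshold. Nor was any of the 25 cholesterol synthesis genes (Insig1 -0.19, Fdps -0.40), the 20 chaperone and stress genes of the endoplasmic reticulum (Trib3 -0.78, Ddit3 -0.32), the 18 genes of proliferation and new neurons (Prom1 0.47, Cdk1 -0.98) or the 8 mitochondrially encoded genes (mt-Co1 0.19, mt-Nd2 0.217).

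Markers of other cell types and of neighbouring regions were set beside these groups. With edgeR no gene was called among the markers of astrocytes (15 tested; Gjb6 0.40, Fgfr3 0.26), microglia (17; Trem2 -0.49, Aif1 -0.53), endothelium (15; Ly6c1 0.56, Flt1 0.55), mural cells (10; Abcc9 0.69, Tagln -0.77), meninges (13; Slc22a6 -1.44, Slc6a13 -1.05), ependyma and tanycytes (13; Rarres2 -0.66, Crym -0.82), choroid plexus (12; Kcne2 -1.29, Calml4 -0.61), activated immune cells (21; Vim -0.41, Anxa2 -0.43), blood (5; Alas2 0.73, Hbb-bt 0.69) and pituitary (4; Tbx19 0.47, Gh 1.52), all as log2 fold changes with all libraries, and none was called without library 5. The same was true of thalamus (13; Adarb1 0.26, Amotl1 0.23), striatum (13; Ppp1r1b -0.63) and cortical excitatory neurons (13; Nrgn -0.51, Tbr1 -0.499). Gjb6, Fgfr3, Ly6c1 and Tbr1 passed with voom, and Abcc9, Slc22a6, Slc6a13 and Tbr1 with DESeq2, in the same direction as here. The blood cell list had a median of 0.25 with all libraries and 0.74 without library 5, with 5 of 5 members positive in both, and the thalamus list had 0.27 and 0.31, with 12 and 13 of 13 positive. The endothelial list had 0.28 and 0.27. The medians of lists that lay lower were -0.82 for meninges, -0.58 for ependyma and tanycytes and -0.47 for striatum, and -0.95, -0.102 and -0.48 without library 5. Lists with smaller negative medians were choroid plexus (-0.24 with and -0.087 without library 5), microglia (-0.20 and -0.068), cortical excitatory neurons (-0.16 and -0.16), activated immune cells (-0.13 and -0.18), the hypothalamus itself (-0.11 and -0.038) and, with library 5 only, mural cells (-0.022 and 0.077). The endothelial sum ran from 126 to 285 (median 227) CPM at 3 h and from 149 to 231 (median 175) CPM at 4 weeks, with 14 of 15 members higher at 3 h. Mfsd2a and Slc2a1 are made in brain endothelium, and the part of these cells in their values was not tested.

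To ask whether the difference between the time points belonged to psilocybin, the same difference was taken in the vehicle mice, which are other animals. After vehicle, 130 of 18971 genes (0.685%) were called, 99 higher (0.522%) and 31 lower at 3 h (0.163%). In the fit without 4-week library 5, which shares its estimate of the spread, the vehicle mice had 166 higher (0.879%) and 59 lower (0.312%). Of the 95 genes higher at 3 h after psilocybin, 94 had a positive difference after vehicle too, beside 11295 of all 18971 genes with the same direction after both, and 54 of the 95 were called. Of the 21 lower genes, 21 had a negative difference after vehicle and 6 were called. The glucocorticoid targets were called in 12 of 25 after vehicle, with a list median of 0.54. Tsc22d3 ran from 103 to 169 CPM (median 155) at 3 h and from 65.6 to 82.4 CPM (median 75.2) at 4 weeks in these mice, and Plin4 from 4.81 to 43.9 CPM (median 9.85) and from 1.89 to 4.02 CPM (median 2.69). All 8 genes in the plot of higher genes by library were called higher at 3 h after vehicle too. Col6a1 had -0.20 after vehicle (adjusted p 0.965, edgeR) beside -1.04 after psilocybin, and the direct test given next did not call it. Its vehicle values were widely spread, from 6.86 to 24.9 CPM at 3 h and from 6.42 to 29.3 CPM at 4 weeks.

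The direct test of the difference between the time differences (psilocybin minus vehicle) called 0 of 18971 genes in edgeR, with 999 at an unadjusted p under 0.05, and 0 without library 5, with 431 unadjusted. DESeq2 and the weighted voom procedure also called 0. The difference of the log2 fold changes was 0.28 (95% interval -0.032 to 0.59) for Fkbp5, -0.081 (95% interval -0.38 to 0.216) for Tsc22d3, 0.55 (95% interval -0.352 to 1.46) for Plin4, 0.43 (95% interval -0.15 to 1.02) for Zbtb16 and 0.11 (95% interval -0.223 to 0.44) for Mfsd2a. For Bdnf it was 0.11 (95% interval -0.14 to 0.37) and for Cirbp -0.16 (95% interval -0.44 to 0.12). All of these genes were named for calls after psilocybin, which favours a larger difference there than after vehicle. Over the 95 higher genes the median log2 fold change was 0.44 after psilocybin and 0.36 after vehicle. The intervals of Htr2a, -0.13 (95% interval -0.602 to 0.347), and Crh, -0.56 (95% interval -1.12 to 0.00087), show how large a difference could have been missed. A difference that did not pass does not show that the time differences were alike.

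**Figure D5:**
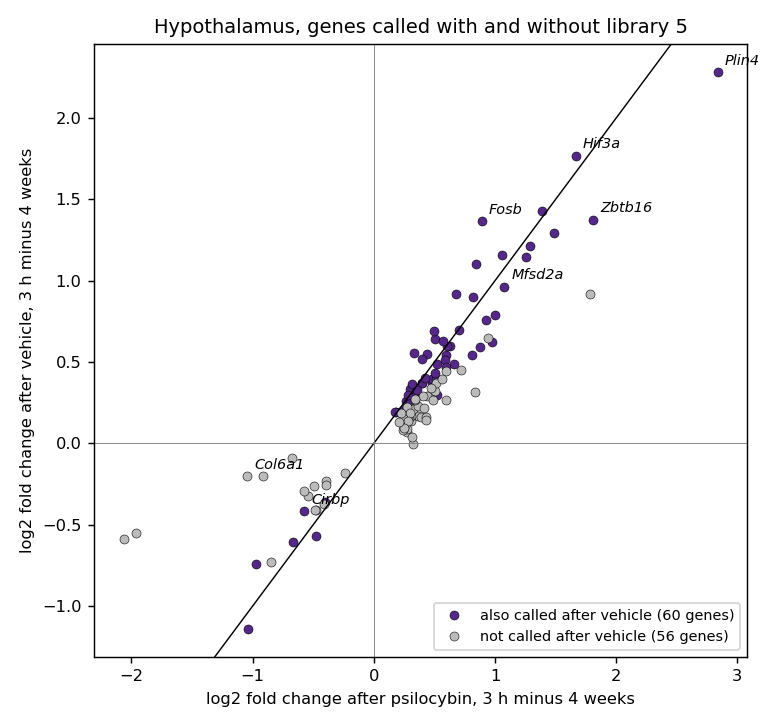
Log2 fold change (3 h minus 4 weeks) after psilocybin on the x axis and after vehicle on the y axis for the 116 genes called after psilocybin with and without library 5, with the black line marking equal values. All but 1 of the 116 have the same sign after both, 60 were also called after vehicle (purple), and Plin4, Zbtb16 and Mfsd2a lie below the line but did not differ between treatments by the direct test. The genes were chosen by their calls after psilocybin, which favours larger differences on the x axis.

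The PFC of the psilocybin mice gave the time difference in another region of the same animals, so the values are set side by side. The edgeR fit treats both libraries of a mouse as independent. There 1131 of 18971 genes (5.96%) were called, 513 higher (2.7%) and 618 lower at 3 h (3.26%). Without 4-week hypothalamus library 5 in the fit, there were 2143 (11.3%), 1026 higher (5.43%) and 1117 lower (5.91%). The log2 fold changes in hypothalamus and PFC were 0.88 and 1.32 for Fkbp5, 0.82 and 1.25 for Tsc22d3 and 1.07 and 1.39 for Mfsd2a. For Plin4 (2.84 and 2.48), Bdnf (0.51 and 0.37), Zbtb16 (1.81 and 0.67), Cdkn1a (1.29 and 0.53), Sgk1 (1.06 and 0.29) and Hr (0.98 and 0.27) the hypothalamus had the larger value. None of these passed the test of the difference between regions, where Zbtb16 had an adjusted p of 0.0912 (edgeR). All were named with their call in the hypothalamus known, which favours a larger value there. Over the 95 higher genes the median log2 fold change was 0.44 in the hypothalamus and 0.29 in the PFC.

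That test called 22 of 18971 genes (0.116%), 6 with a larger value in the hypothalamus (0.0316%) and 16 with a larger value in the PFC (0.0843%), and 23 without library 5 (0.122%), 5 (0.0265%) and 18 (0.0953%). Among those with the smallest p-values, Ier5, an immediate early gene, had log2 fold changes of -0.297 in the hypothalamus and 0.69 in the PFC, a difference of -0.99 (95% interval -1.27 to -0.71) with an adjusted p of 4.37e-05. Without library 5 the difference for Ier5 was -0.87 (adjusted p 9.06e-05, edgeR). Bhlhe40, a repressor of the clock that activity also induces, had -0.056 and 0.82 (adjusted p 0.00170). Egr4, an immediate early transcription factor, had -0.70 and 1.08 (adjusted p 0.0182), with values from 0.449 to 0.875 CPM (median 0.647) in the hypothalamus at 3 h and from 9.29 to 16.4 CPM (median 12.7) in the PFC. Eva1c had -0.497 and 1.17 (adjusted p 0.00568), Otub2 -0.026 and 0.52 (0.0194), and Pxylp1, the one with the larger value in the hypothalamus, 0.13 and -0.41 (0.0182). With voom, quality weights and the animal as block, which takes the shared animal into account, 120 genes were called in this test, and the 6 genes named here were among them. With the cage as a replicate block 7 were called, with 5 of these 6 among them, and Egr4 was lost (adjusted p 0.0520, edgeR). Without the filter on low counts Pxylp1, Egr4 and Otub2 lost the call (adjusted p 0.132, 0.0864 and 0.213, edgeR). Pxylp1 also lost it with an offset for gene length (0.0619), and Otub2 without the 3 libraries that stood apart (0.0952). Pxylp1 and Egr4 lost it with the length offset and the block together (0.0752 and 0.0567).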

How the data were processed

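Bulk RNA of hypothalamus and PFC was sequenced as stranded poly(A) libraries. The authors deposited raw read counts per gene, made, per the submitters' processing notes, with bcl2fastq 2.20.0, STAR 2.7.2b and featureCounts 1.6.2 on GRCm38. From these counts, 62 of 64 libraries with at least 1000000 counted reads were fitted with edgeR 4.0.16 (R 4.3.3): TMM normalisation, filterByExpr (minimum count 10), a robust quasi-likelihood test on group and extraction pool, and Benjamini-Hochberg adjustment over 18971 of 55401 genes, called at an adjusted p of 0.05, two-sided. CPM are TMM-normalised. DESeq2 1.42.0, limma 3.58.1 and other settings were alternatives, 3 of them added after seeing the data. The main test was kept to edgeR because the values are counts, while the model of the study, voom with quality weights and the animal as block, was an alternative. The study also left out a sample rich in wound healing and immune genes, which the sources used here do not identify, so the alternative does not have the same input. The test was checked on simulated data.

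Named genes were the 12 higher and the 12 lower with the smallest p among those called with and without 4-week library 5, passing over uncharacterised Gm and Rik names, up to 4 called or 2 uncalled genes of each list, 10 fixed genes and up to 6 genes of each difference test. The members and lists were chosen with earlier results of these data known. Replicate numbers are cage numbers. Deviations of same-cage mice correlated with a mean of 0.0545 over 8 pairs, 3 of them over 0.1, and -0.0470 after the pool was removed, so the numbers were not treated as pairs. The closest 2 libraries of a group still differed by a chi-square of 4.83 per degree of freedom, so none was counted as a duplicate. Of the 55401 gene IDs 55141 had a symbol. One gene that the rule names is not reported here.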

Additional observations from a re-analysis of the deposited data

Results flagged for a closer look

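For 98 named genes, the highest and the lowest library of each group of 8 was compared with the other 7. In 42 of 196 groups 1 library lay far from the rest, its gap to the nearest library exceeding Dixon's 95% critical value for 8 values, where chance alone gives about 1 in 20. Library 5 at 4 weeks was the one in 26 of the 42.

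In that library the values in CPM, with the range of the other 7 libraries, were high for Mir9-3hg (26.2, others 15.7 to 18.9), Cirbp (145, others 83.8 to 107), Opalin (94.5, others 28.2 to 42.4), Rpl36 (419, others 55.5 to 74.3), Rplp2 (468, others 70.1 to 101), Trem2 (31.9, others 7.40 to 12.3), Nrgn (167, others 38.1 to 72.7), Ier5 (29.2, others 14.01 to 18.5) and Aif1 (16.7, others 3.42 to 5.17). They were also high for Ndufb7 (264, others 50.96 to 64.3), Ndufb10 (441, others 94.5 to 112), Fdps (38.8, others 9.23 to 14.7), Rarres2 (91.3, others 9.97 to 37.1), Avp (1121, others 95.2 to 279.7), Oxt (1201, others 89.6 to 181), Ucn (2.54, others 0 to 0.895), Ddit3 (58.2, others 16.2 to 20.04), Pomc (147, others 21.9 to 48.8), Calml4 (25.2, others 1.87 to 9.66), Agrp (26.6, others 2.51 to 9.36) and Npy (50.2, others 9.43 to 24.002). They were low for Gpr17 (41.4, others 61.2 to 77.5), Abcc9 (1.47, others 4.53 to 6.58), Igf1r (25.3, others 55.6 to 70.6), Hcrtr2 (2.87, others 6.27 to 8.87) and Htr2c (36.4, others 92.4 to 136).

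In 4-week library 1 the value stood apart for Banp (8.92, others 13.2 to 16.5), Slc22a6 (12.001, others 0.417 to 3.71) and Gh (15.6, others 0 to 1.49). In 4-week library 3 the value stood apart for Fosb (4.37, others 0.773 to 2.28). In 4-week library 4 the value stood apart for Hcrt (129, others 7.10 to 58.1). In 4-week library 8 the value stood apart for Egr4 (2.71, others 0.330 to 1.19), Crym (54.9, others 3.88 to 15.4) and Ppp1r1b (143, others 20.1 to 64.8). Among the 3 h libraries, library 2 stood apart for Hcrtr2 (13.3, others 7.81 to 9.90) and Gh (66.5, others 0.0364 to 1.28). Among the 3 h libraries, library 5 stood apart for Gpr17 (73.1, others 92.7 to 107), Slc6a13 (8.32, others 2.66 to 5.04) and Ucn (11.6, others 0 to 1.12). Among the 3 h libraries, library 6 stood apart for Cd180 (2.22, others 1.19 to 1.598), Crym (21.3, others 3.56 to 11.3) and Ppp1r1b (58.1, others 21.3 to 35.7).

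The time difference after psilocybin differed between hypothalamus and PFC in the test of that difference. The hypothalamus minus PFC difference of the log2 fold changes was -0.99 for Ier5, -0.88 for Bhlhe40, -1.67 for Eva1c, 0.54 for Pxylp1, -1.79 for Egr4 and -0.55 for Otub2. These are the 6 called genes with the smallest p-values.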

How the results depend on the processing

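The 220 genes called over the time points kept their direction in each alternative that tested them, except that 217 of 219 did so in pool B without 4-week library 5. The count of calls was 448 (213 higher, 235 lower) with DESeq2, 728 (459 higher, 269 lower) with voom, quality weights and the animal as block, and 677 (442 higher, 235 lower) with the same without library 5. It was 192 (142 higher, 50 lower) with the cage as a replicate block and 109 (92 higher, 17 lower) with the block and without library 5. It was 31 (26 higher, 5 lower) in a fit of the 16 libraries alone, 17 (17 higher, 0 lower) in pool A, 2 (2 higher, 0 lower) in pool B and 18 (18 higher, 0 lower) in pool B without library 5. These 4 fits hold fewer samples. Without the 3 libraries that stood apart it was 79 (66 higher, 13 lower). Lower calls numbered 15 without the filter, 44 without the pool term and 48 with a length offset and the block. Leaving out single libraries (5 or 3 at 4 weeks, 5 at 3 h) gave 150 to 239 calls, 105 to 143 higher and 33 to 96 lower. Leaving out each of the other libraries was not run. The cause of these shifts was not tested.

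For hypothalamus minus PFC the count was 4 (1 higher, 3 lower) without the filter, 98 (26 higher, 72 lower) with DESeq2, 120 (49 higher, 71 lower) and, without library 5, 88 (33 higher, 55 lower) with voom, 7 (2 higher, 5 lower) and 14 (3 higher, 11 lower) with the replicate block, 11 (2 higher, 9 lower) without the pool term, 9 (2 higher, 7 lower) with a length offset and the block and 14 (4 higher, 10 lower) without the 3 libraries. With the length offset alone 3 were higher. Leaving out single libraries gave 14 to 23 calls, 3 to 5 higher and 10 to 18 lower. Psilocybin minus vehicle gave 0 calls in each alternative run. Of the 38 called genes named by the rule, 34 stayed called without library 5, 37 with the replicate block, 27 with the block and without library 5, 26 without the 3 libraries and 17 with the 16 libraries alone.

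Among the named genes that edgeR did not call, Gjb6, Fgfr3, Tbr1, Ly6c1, Ucn and Nr3c2 passed with voom and Prom1, Abcc9, Rplp2, Tbr1, Slc22a6 and Slc6a13 with DESeq2, with the same direction. Other edgeR fits added 1 named gene each: without the filter, with the length offset, with offset and block, and without 3 h library 5. Genes that edgeR did not call with all libraries turned sign as follows, in log2 fold change. Of these values, those of Agrp in the 2 voom fits passed 0.05 (adjusted p 0.0351 and, without library 5, 0.0333). In pool B without library 5 this was 0.15 for Rpl36, 0.16 for Rplp2, 0.043 for Aif1, 0.090 for Ndufb7, 0.12 for Ndufb10, 0.034 for Fdps, 0.346 for Rarres2, 0.225 for Avp, 0.31 for Oxt, 0.031 for Ddit3, 0.362 for Pomc, 0.17 for Vim, -0.16 for Htr1f, 0.32 for Anxa2, 0.12 for Calml4, -0.15 for Htr2c, 1.22 for Agrp and 0.65 for Npy. Without 4-week library 5 this was 0.0062 for Ndufb7, 0.011 for Ndufb10, 0.0011 for Ddit3, -0.026 for Htr2c, 0.40 for Agrp, 0.0078 for Otub2 and 0.27 for Npy. With voom weights this was 0.046 for Ndufb7, 0.024 for Ndufb10, 0.065 for Rarres2, 0.0075 for Ddit3, 0.0068 for Pomc, 0.031 for Vim, 0.13 for Calml4, -0.077 for Htr2c, 0.75 for Agrp, 0.0036 for Otub2 and 0.3503 for Npy. With voom weights and without library 5 this was 0.055 for Ndufb7, 0.032 for Ndufb10, 0.085 for Rarres2, 0.014 for Ddit3, 0.022 for Pomc, 0.044 for Vim, 0.0012 for Anxa2, 0.16 for Calml4, -0.085 for Htr2c, 0.77 for Agrp, 0.0053 for Otub2 and 0.358 for Npy. Without the 3 libraries this was 0.0047 for Ndufb7, -0.067 for Htr2c, 0.498 for Agrp, 0.035 for Otub2 and 0.26 for Npy. In pool A this was -0.013 for mt-Co1, 0.099 for Crh, 0.15 for Pmch and 0.018 for Otub2. With the replicate block and without library 5 this was 0.0074 for Crh, -0.016 for Htr2c, 0.43 for Agrp, 0.013 for Otub2 and 0.26 for Npy. Without the filter this was 0.0079 for Bhlhe40, 0.038 for Otub2 and 0.033 for Npy. In pool B this was 0.013 for Bhlhe40 and 0.040 for Npy. Without 4-week library 3 this was 0.012 for Bhlhe40. With the replicate block this was 0.13 for Agrp and 0.057 for Npy. With the length offset this was 0.1002 for Agrp and 0.12 for Npy. With the length offset and block this was 0.25 for Agrp and 0.16 for Npy. Over the fits that left out single libraries the values ran from -0.54 to 0.0062 for Ndufb7, -0.48 to 0.011 for Ndufb10, -0.37 to 0.0011 for Ddit3, -0.12 to 0.012 for Bhlhe40, -0.026 to 0.105 for Htr2c, -0.11 to 0.40 for Agrp, -0.019 to 0.0078 for Otub2 and -0.067 to 0.27 for Npy. In counts simulated from gene means pooled over all libraries used, the test recovered 52.6% of genes changed 1.5-fold and 76.5% of those changed 2-fold. The library sizes were the real ones. Without 4-week library 5 the shares were 52.6% and 75.5%, while the calls in the real data went from 220 to 150. The simulated counts thus did not carry the effect of that library, and the shares do not give the power of this comparison. Smaller changes were not simulated.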
